A study of Schizosaccharomyces pombe with 127 samples.

Results

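The strains described here lack a kinase that phosphorylates the alpha subunit of translation initiation factor eIF2, according to their labels. They comprise 4 of 127 arrays, chosen as all arrays whose title names gcn2 or hri1: 1 array per strain in minimal medium with nitrogen (0 min) and 1 after 60 min without nitrogen. Both strains are fission yeast (Schizosaccharomyces pombe) in log phase, labelled as kinase deletion strains, and the labels name no further allele and no clone number. They were set against the 61 other deletion strains with a 0 min array and the 60 with a 60 min array, each labelled for a different gene, usually that of a protein kinase. The labelled gene was the lowest of all strains at every time measured in 45 of these 61, at 0 min only in 6, at 60 min only in 2 and at neither time in 7, among them chk1, wis1 and srk1, and it was not measured in 1. The comparisons were therefore repeated against these 45 alone (44 with a 60 min array), a choice made after the values were seen. On every array the RNA of a strain (Cy5) was hybridised against one pool of wild-type RNA (Cy3), so a level is the log2 ratio of the strain to that pool, centred on the median of its array. No array analysed here is labelled for a deletion of hri2, the remaining eIF2 kinase gene of this yeast.

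When eIF2 alpha is phosphorylated, eIF2 can no longer be recharged with GTP by its exchange factor eIF2B, and general translation initiation slows. Gcn2 is activated by uncharged tRNA when amino acids run short, while the Hri kinases are known as heme-regulated and stress-responsive. Translation of the transcription factor Fil1, the fission yeast counterpart of budding yeast Gcn4, rises when eIF2 alpha is phosphorylated, and Fil1 activates amino acid synthesis genes.

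Each strain has 1 array per time, so the strain is the unit of every test. The p-values set a deviation against the spread between deletion strains, in which strain and array differences cannot be told apart. In the tests of a single strain, that strain is assumed to vary like the others. The arrays measure 4929 genes and unnamed features with 9858 probes. Across genes, the spread of log2 ratios on the gcn2 arrays had a median absolute deviation of 0.172 at 0 min and 0.362 at 60 min. That of the arrays labelled hri1 was 0.282 and 0.493, against a median of 0.211 and 0.459 over the other strains. At 0 min the array labelled hri1 thus ranked 57 of 63 in spread, counted from the lowest, and the gcn2 array ranked 17. A wider spread enlarges every deviation of an array, so each array was also scaled to a common spread, and its values are given beside the results that moved with it. At 60 min the spread of an array includes its starvation response, so scaling also evens out the size of that response.

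The gcn2 transcript was low in the strain labelled gcn2. Its level was -1.29 at 0 min and -1.23 at 60 min, whereas the other strains ran from -0.43 over a median of -0.07 to 0.68 at 0 min and from -0.42 over -0.01 to 1.00 at 60 min. The gcn2 strain therefore lay below every other strain at both times, and both of its probes were the lowest of all strains at both times. The difference from the other strains was -1.24 (SE 0.21, limma adjusted p = 0.000788) at 0 min and -1.26 (SE 0.26, limma adjusted p = 0.0386) at 60 min. Against only the 45 strains whose own gene was lowest, the 60 min difference was -1.28 (SE 0.29, limma adjusted p = 0.306) and was not called. The probes differed in depth: the levels were -0.75 and -1.83 at 0 min and -0.78 and -1.68 at 60 min. In the arrays labelled hri1 the gcn2 level was -0.25 and -0.29, within the range of the other strains. Of the genes that flank gcn2, tlg1 had levels of -0.10 and 0.25 in the gcn2 strain and pgs1 had levels of -0.22 and 0.46, all inside the range of the other strains.

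The hri1 transcript was not low in the arrays labelled hri1. Its level there was -0.10 at 0 min, rank 9 of 63 from the lowest, where the other strains ran from -0.61 over 0.16 to 0.90. At 60 min it was 2.22, rank 29 of 62, where the other strains ran from 1.01 over 2.29 to 3.83. Both hri1 probes read alike, with -0.10 on each at 0 min and 2.05 and 2.40 at 60 min. The transcript rose on starvation in the arrays labelled hri1 by 2.33, in the gcn2 strain by 1.82 and on average by 2.08 (SD 0.52) in the other strains. A probe outside the deleted stretch would not report a deletion, and the labels do not say which part of a gene was removed. For this reason they are called the arrays labelled hri1 throughout, and each direction taken from them rests on a label that its own transcript goes against. The flanking genes fus1 and hus1 had levels of 0.03 and -0.43 at 0 min, both within the other strains. At 60 min fus1 lay at 0.05, and hus1 at 0.44 was the highest of 62 strains (difference 0.50, SE 0.18, limma adjusted p = 0.393).

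The hri2 transcript was the lowest of all strains in the arrays labelled hri1 at both times. Its level was -1.35 at 0 min, where the other strains ran from -0.93 over -0.18 to 0.25, and -0.88 at 60 min, where the lowest other strain also lay at -0.88 when rounded. The difference was -1.14 (SE 0.24, limma adjusted p = 0.0776) at 0 min and -0.61 (SE 0.24, limma adjusted p = 0.43) at 60 min, so neither time passed by itself. At 0 min quantile normalization called it, at -2.23 (limma adjusted p = 0.00466), whereas scaled arrays gave -0.82 (limma adjusted p = 0.997). By probe, the levels were -1.23 and -1.46 at 0 min, each the lowest of 63. At 60 min they were -0.51, rank 10 of 62, and -1.25, rank 2. In the mean of both times, an outcome added after the values were seen, hri2 was called at -0.88 (SE 0.19, limma adjusted p = 0.0304). It was 1 of 3 features called in that mean (0.0609% of 4929), beside mrpl10 and SPAC23H4.07C. The gcn2 strain had hri2 levels of -0.33 and -0.27, near the middle of the other strains. The genes flanking hri2, mak16 and sno1, did not pass the test in the arrays labelled hri1: mak16 lay at -0.53 and -1.41, ranks 5 of 63 and 2 of 62, and sno1 at 0.27 and -0.58. Whether the strain lacks hri2, hri1 or neither was not tested.

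**Figure D1:**
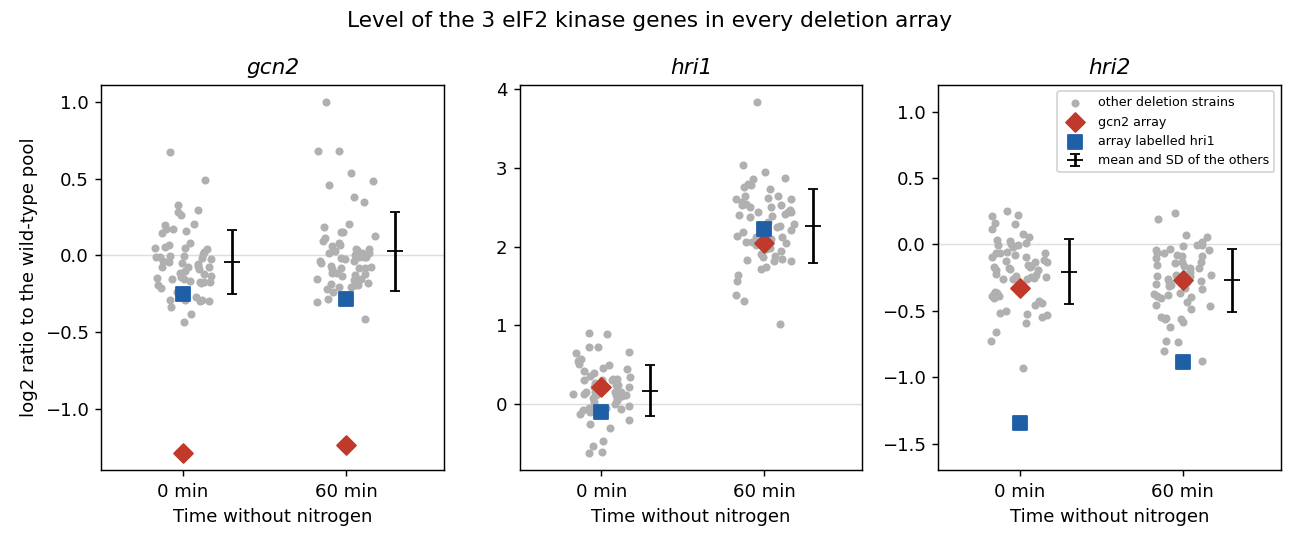
Log2 ratio to the wild-type pool (vertical axis) of gcn2, hri1 and hri2 at 0 and 60 min without nitrogen, 1 grey point per other deletion strain, with the gcn2 array as a diamond, the array labelled hri1 as a square and the mean with SD of the other strains as a bar. The gcn2 strain stands below all others for gcn2 (-1.29 and -1.23), the square sits among the others for hri1 and at or below the lowest of them for hri2 (-1.35 and -0.88).

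As a group, the genes of the eIF2 pathway list lay at or slightly below the other strains. The list holds partners and targets of the kinases and also the kinase genes gcn2, hri1 and hri2. Its medians and counts thus include the low gcn2 of the gcn2 strain and the low hri2 of the arrays labelled hri1. They were not recomputed without these genes. Over the 18 genes of the eIF2 pathway list, the median difference was -0.14 in gcn2 and -0.01 in the arrays labelled hri1 at 0 min, and -0.06 and -0.13 at 60 min, beside 0.01 and 0.04 at 0 min and 0.00 and 0.02 at 60 min over all genes. In gcn2 at 0 min the list ranked 6 of 63 with 6 of 18 members above the mean, and in the array labelled hri1 at 60 min it ranked 5 of 62 with 5 of 18 above. With quantile normalization these ranks were 3 and 3, and with scaled arrays 3 and 20. Only the gcn2 gene itself, in the gcn2 strain, was called among the 18 members at either time. Of the activators and the inhibitor of Gcn2, gcn1 had levels of 0.15 in gcn2 and 0.31 in the array labelled hri1 at 0 min, against a mean of -0.11 (SD 0.28). The ABC protein gene gcn20, whose product acts with Gcn1, lay at -0.58 in the array labelled hri1 at 60 min, the lowest of 62 strains, and at -0.25 in gcn2 (others -0.20, SD 0.18). Its difference there was -0.38 (SE 0.19, limma adjusted p = 0.631). The Gcn2 inhibitor gene yih1 was at -0.09 and -0.02 at 0 min, both near the mean of the others at -0.11.

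The eIF2 subunit genes were lower after starvation. tif211, which encodes the alpha subunit that the kinases phosphorylate, changed by -1.46 in gcn2, -1.42 in the arrays labelled hri1 and -1.36 (SD 0.21) on average in the others. The beta subunit gene tif212 changed by -1.34, -1.02 and -1.49 (SD 0.39), and the gamma subunit gene tif213 by -1.49, -1.97 and -1.48 (SD 0.34). Both deletion strains lay within the range of the others for tif211 and tif213. Among the eIF2B genes, tif223 and tif225 had levels of -0.34 and -0.24 in gcn2 at 0 min, each the third lowest of 63, with differences of -0.30 (SE 0.18) and -0.21 (SE 0.13) that did not pass the test. In the array labelled hri1 the eIF2B alpha subunit gene gcn3 lay at 0.53 at 0 min, rank 62 of 63, and its change of -0.93 was the lowest of 62 strains (difference -0.45, SE 0.28, limma adjusted p = 0.998). The other subunit genes tif222 and tif224 deviated by at most 1 SD of the other strains at 0 min in the array labelled hri1 (0.28 and 0.09) and lay at 0.02 and -0.11 in gcn2.

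Of the factors that work with eIF2 at the start codon, tif5, which encodes eIF5, was among the lowest in both. Its level was -0.54 in gcn2 and -0.42 in the array labelled hri1 at 0 min, ranks 2 and 6 of 63, and -1.43 and -1.69 at 60 min, ranks 7 and 1 of 62. The other strains averaged 0.00 (SD 0.31) and -1.02 (SD 0.28). Taken as a pair, the difference was -0.48 (SE 0.22) and -0.53 (SE 0.20), with limma adjusted p of 0.688 and 0.364. sui1, which encodes eIF1, was at -0.18 and 0.02 at 0 min and -0.49 and -0.53 at 60 min, against 0.20 (SD 0.28) and -0.21 (SD 0.21), and tif11, which encodes eIF1A, was at -2.21 and -2.50 at 60 min against -2.13 (SD 0.25). None of these 3 passed the test. The transcript of fil1 was slightly above the mean in both: 0.40 and 0.45 at 0 min against 0.22 (SD 0.26), and 0.63 and 0.50 at 60 min against 0.44 (SD 0.28). These arrays measure transcripts, so translation of fil1 is outside what they show.

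Across all genes, no feature other than the gcn2 gene itself was called in the gcn2 strain. With 1 array per time, a feature that was not called may still differ. limma called 1 of 4929 features (0.0203%) at 0 min and 1 (0.0203%) at 60 min, both of them gcn2. In the 60 minus 0 min change it called 0 (0%), with 14 features at an unadjusted p under 0.05, while 49 and 139 were under it at 0 and 60 min. Besides gcn2, 2 genes were the lowest of all strains at both times, chosen after their values were seen: clr1, a subunit of the heterochromatin histone deacetylase complex, at -0.56 and -0.55 from the others, and myo51, a type V myosin, at -0.48 and -0.45. One other gene was at least 2-fold from the other strains at both times, SPCC737.04, at 0.75 and 1.29 where the others averaged -0.32 (SD 0.64) and -0.05 (SD 0.46). That spread runs wide, from -3.08 to 2.24 at 0 min, and the gene did not pass the test (limma adjusted p = 1 at 0 min and 0.996 at 60 min).

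Amino acid synthesis genes in gcn2 lay near the other strains with nitrogen present. Over the 69 genes measured in 8 pathway lists, the median difference was 0.01, rank 32 of 63, with 38 genes above the mean of the others and 31 at or below it. The single lists ran from -0.10 for histidine to 0.06 for serine, glycine and threonine. At 60 min the median over the 69 genes was 0.14, rank 52 of 62, with 48 of 69 above the mean, beside 2512 of 4929 over all genes. Scaled arrays gave 0.07 and rank 39. The sulfur list had the largest median of the 8 as measured, 0.23, rank 61 of 62, and fell to 0.07, rank 37, with scaled arrays, where arginine was the largest at 0.20. The smallest as measured was that of proline, glutamate and glutamine at -0.10. With each array scaled to a common spread it turned to 0.01, and the branched-chain list turned from 0.18 to -0.09. Quantile normalization left the sign of all 8 at 60 min as measured. No gene of the 8 lists was called in gcn2 at either time or in the change.

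Single enzymes of these lists lay inside the range of the other strains in gcn2. leu1, which encodes isopropylmalate dehydrogenase of leucine synthesis, stood at 0.00 at 0 min and -1.36 at 60 min, where the others ran from -0.89 over 0.17 to 0.75 and from -2.50 over -1.51 to -0.71. hom2, which encodes aspartate semialdehyde dehydrogenase, stood at 0.51 and -1.44, with the others at a median of 0.35 and -1.84. The asparagine synthetase gene asn1 stood at 0.40 and -0.19, with the others at 0.17 and -0.84. The 3 genes were thus neither the lowest nor the highest at either time. In the change from 0 to 60 min the 69 genes had a median difference of 0.15 (rank 52 of 62), which became -0.02 with scaled arrays.

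The nitrogen-use genes stood lower in gcn2 at 60 min than in most strains as measured, but not once the arrays were scaled. Over the 10 genes the median difference at 60 min was -0.59, rank 6 of 62, and in the change -0.75, rank 6. With arrays scaled to a common spread these medians were 0.00 and -0.06, and with quantile normalization -0.02 and -0.26. The SD of the other strains at 60 min was 0.46 as measured and 0.88 with scaled arrays. Scaling also evens out the size of the response, so a smaller response and a narrower array cannot be told apart here. dal2, which encodes allantoicase, rose to 3.04 in gcn2 and 5.09 in the array labelled hri1, whereas the others ran from 0.94 over 4.71 to 6.18. The uracil-degradation gene urg2 rose to 4.97 and 6.13, against a mean of 5.92 (SD 0.93). The ammonium transporter gene amt1, by contrast, stood at 2.19 in gcn2, above the mean of 1.78 (SD 0.25). None of the 10 was called.

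Chaperone genes stood higher in gcn2 at 60 min than in most strains. The median over 11 genes was 0.50 above the others, rank 57 of 62, with 10 of 11 above the mean. It was 0.35, rank 60, with quantile normalization and 0.50, rank 53, with scaled arrays, where the SD of the other strains was 0.46. The Hsp70 gene ssa1 stood at -0.47 in gcn2 and -0.68 in the array labelled hri1, against a range from -3.66 over -1.76 to 0.09. hsp90 stood at -1.29 and -1.95, against a mean of -2.29 (SD 0.59). No chaperone gene passed the test in either. The array labelled hri1 had a list median of 0.31 at that time, and of 0.50, rank 52, with scaled arrays, about that of gcn2. At 0 min the chaperone list already stood at 0.28 in gcn2, rank 61 of 63, although 6 of its 11 genes were above the mean, a share near that over all genes (54.5% against 52.9%). At that time the stress list stood at 0.26, rank 54, with the glycerol-3-phosphate dehydrogenase gene gpd1 at 1.17 where the others averaged 0.29 (SD 0.55).

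In the arrays labelled hri1 the pattern at 0 min was different: amino acid synthesis and translation genes lay high as groups, beside several other lists. The median difference over the 69 amino acid synthesis genes was 0.32, the highest of 63 strains, with 58 of 69 above the mean of the others, beside 55.1% above it and a median of 0.04 over all genes. All 8 lists ranked between 59 and 63 of 63 as measured. Their medians were 0.43 for arginine, 0.37 for branched-chain amino acids, 0.36 for serine, glycine and threonine, 0.32 for histidine and for proline, glutamate and glutamine, 0.30 for aromatic amino acids, 0.25 for lysine and 0.21 for sulfur. With arrays scaled to a common spread the median over the 69 genes was 0.19 and still the highest of 63. The single lists then ranked from 51, for lysine, to 63, with branched-chain at 56 and sulfur at 57. With quantile normalization the median over the 69 genes was 0.42, also the highest. No single gene of these lists was called by limma at 0 min, where 0 features in all (0%) were called and 358 had an unadjusted p under 0.05. The wide spread of this array and its label stand beside these values, and their part in them was not tested.

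Examples came from several pathways. leu1 stood at 0.81 in the array labelled hri1, above the 0.75 of the highest other strain, with a difference of 0.66 (SE 0.32, limma adjusted p = 0.658). aro2, which encodes chorismate synthase, stood at 0.56, above the highest other strain at 0.49, and arg11, a bifunctional enzyme gene of arginine synthesis, at 0.74 above 0.70. hom2 stood at 0.71, where the highest of the others lay at 0.70. These 4 margins are far smaller than the SD of the other strains, which was 0.33 for leu1 and 0.24 for hom2. gln1, which encodes glutamine synthetase, was the second highest at 1.14, with the others running from -0.86 over 0.49 to 1.26. Genes against the trend included pro2 of proline synthesis at -0.41 (others -0.14, SD 0.19) and aro7 at -0.27 (others -0.01, SD 0.22).

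Translation genes of the array labelled hri1 followed at 0 min. The median difference was 0.40 over 124 ribosomal protein genes (rank 62 of 63, 103 above the mean), 0.27 over 31 translation factor genes (rank 62, 24 above) and 0.25 over 21 tRNA ligase genes (rank 61, 17 above). Scaled arrays gave 0.19, 0.18 and 0.18, at ranks 55, 60 and 59, and the ribosomal protein value lay inside 1 SD of the other strains (0.23). Quantile normalization gave 0.54, 0.36 and 0.31, at ranks 60, 61 and 61. Ribosome biogenesis genes lay the other way, at -0.29 over 61 genes, the lowest of 63 strains, with 18 above the mean. That list stood at -0.20, rank 5, with scaled arrays and at -0.34, rank 8, with quantile normalization. Within these lists single genes departed in both directions: tef3, which encodes elongation factor eEF3, stood at 0.73 (others 0.11, SD 0.36) and the tyrosine tRNA ligase gene yrs1 at 0.69 (others 0.26, SD 0.24). The cap-binding factor gene tif45 stood at -0.83 (others 0.14, SD 0.50) and rpl29 at -0.69 (others 0.27, SD 0.50). For gcn2 the same lists lay at -0.11, -0.04, 0.02 and -0.12 at 0 min, none at an extreme rank. Near-identical ribosomal protein genes may share signal on these probes, so single members of that family are uncertain.

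Heme genes, listed because Hri kinases are known for heme regulation, were also high in the array labelled hri1 at 0 min. The list holds enzymes of heme synthesis and the cytochrome genes cyc1 and cyt1. Its median difference was 0.37 over 9 genes, the highest of 63, with 8 above the mean. hem1, which encodes the first enzyme of the pathway, 5-aminolevulinate synthase, stood at 0.66 against 0.04 (SD 0.31), and hem14 at -0.50 was the lowest of 63 strains. In gcn2 the list stood at -0.03. A list of amino acid permease genes that also holds the peptide and glutathione transporter genes ptr2, isp4 and pgt1 showed 0.38 in the array labelled hri1, with all 11 above the mean (rank 59), and 0.19 in gcn2. Mating genes stood at 0.33 (rank 60, 14 of 17 above) and nitrogen-use genes at 0.32 (rank 60, 9 of 10 above), so the high lists at 0 min were not limited to amino acid and translation genes. With scaled arrays the mating list stood at 0.20, rank 52, and the nitrogen-use list at 0.24, rank 57. The heme list then stood at 0.26, rank 62, and the permease list at 0.31, rank 57. None of these 4 lists had a called member.

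**Figure D2:**
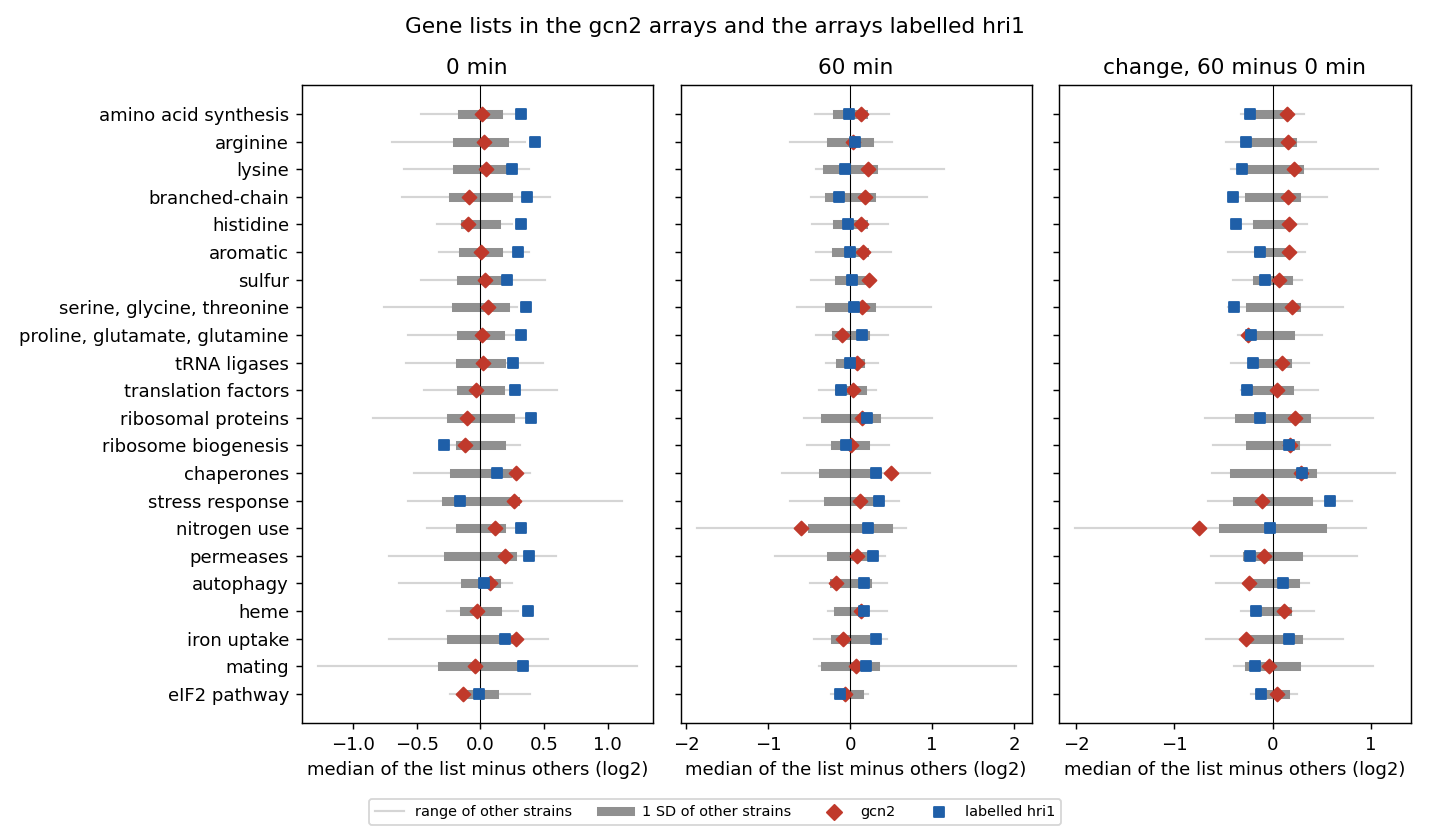
Median over the genes of each list of the log2 difference from the mean of the other strains (horizontal axis), for gcn2 (diamond) and the arrays labelled hri1 (square), at 0 min, 60 min and in the change, with the range of the other strains as a thin line and 1 SD either side of their mean as a thick bar. At 0 min the squares of the amino acid and translation lists lie right of the bars (0.32 over all amino acid synthesis genes), and at 60 min the amino acid lists lie near 0 (-0.02 over all of them).

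By 60 min the amino acid genes of the array labelled hri1 were level with the other strains as measured, and somewhat above them with scaled arrays. The median over the 69 genes was -0.02, rank 27 of 62, as measured and 0.13, rank 47, with scaled arrays. The single lists ran from -0.14 to 0.14 as measured, and scaling turned the branched-chain list from -0.14 to 0.08, the lysine list from -0.07 to 0.14 and the histidine list from -0.03 to 0.06. Their change was therefore more negative than that of the others, with a median difference of -0.23, rank 3 of 62 and 12 of 69 genes above the mean. It was -0.40 with quantile normalization, the lowest of 62, and -0.10, rank 18, with scaled arrays. The branched-chain list had a median difference of -0.40 (rank 2, 0 of 7 genes above the mean) and the histidine list had a median difference of -0.37, the lowest of 62. With scaled arrays these were -0.10 and -0.11, both rank 18, and with quantile normalization -0.50, rank 1, and -0.45, rank 5. leu1 changed by -2.21 and arg1 by -1.43, each the lowest of 62, and hom2 ranked 2. The change contains the 0 min array with its wide spread, so these values are not independent of those at 0 min. Translation factors and tRNA ligases had median differences of -0.26 and -0.19 in the change, both rank 4, and ribosomal proteins had -0.13. With scaled arrays these were -0.01, rank 24, -0.06, rank 23, and 0.36, rank 45, so none of the 3 lists stayed near the low end there. Quantile normalization gave -0.41, rank 3, -0.31, rank 8, and -0.48, rank 5, all of them near the low end.

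The stress genes of the arrays labelled hri1 had a larger change than in most strains. The median difference in the change was 0.59 over 18 genes, rank 60 of 62, with 17 above the mean. It was 0.32, rank 53, with scaled arrays and 0.45, rank 51, with quantile normalization. ish1 rose by 4.04 and gpd1 by 2.39, where the others averaged 3.17 (SD 0.68) and 1.50 (SD 0.69). In gcn2 the list stood at -0.11 in the change, at 0.24 with scaled arrays and at -0.39, rank 9, with quantile normalization. None of these genes was called.

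At 60 min limma called 13 of 4929 features (0.264%) in the array labelled hri1, 10 higher and 3 lower. The largest were mrpl10, which encodes a mitochondrial ribosomal protein, and epr1, a receptor for autophagy of the endoplasmic reticulum. mrpl10 stood at 1.45, where the others ran from -0.54 over -0.08 to 1.02 and gcn2 lay at -0.03, with a difference of 1.50 (SE 0.28, limma adjusted p = 0.00355). epr1 stood at 1.55 against 0.07 (SD 0.33). The other 8 among the higher were SPAC57A7.05 (difference 1.31), mlo3 of mRNA export (1.29), SPBC3H7.04 (1.29), SPCC576.06C (1.21), SPBC800.12C (1.17), the phospholipid flippase gene dnf1 (1.07), SPAC6G10.10C (0.99) and lip2 of lipoate attachment (0.82). Several of the higher genes had a probe with nearly the same reading, as given below, so their calls may not be separate observations. The lower ones were SPAC23H4.07C, which encodes a subunit of the signal recognition particle receptor, SPBC1347.09 and an unnamed feature, p20C8_100037. SPAC23H4.07C lay below all others, which ran from -0.53 over -0.07 to 0.46, with a difference of -0.94 (SE 0.18, limma adjusted p = 0.00355). In each of the 13 the array labelled hri1 was at the extreme of all 62 strains, which largely follows from how they were selected.

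**Figure D3:**
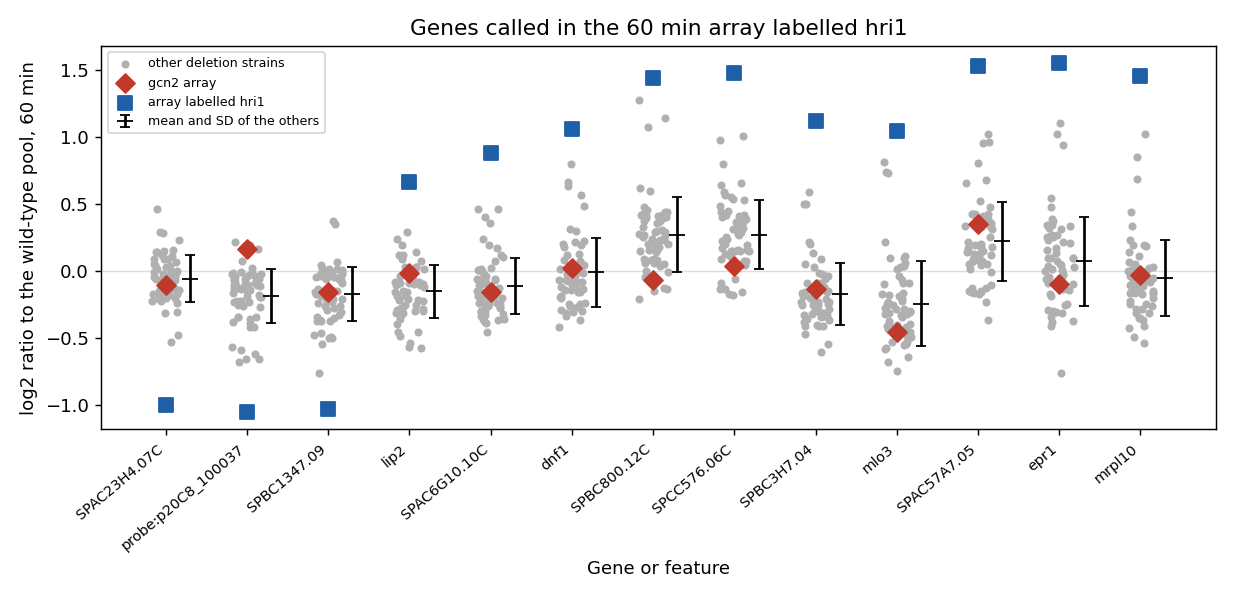
Log2 ratio to the wild-type pool at 60 min (vertical axis) of the 13 features called in the array labelled hri1, with 1 grey point per other deletion strain, the mean with SD of those strains as a bar, gcn2 as a diamond and the array labelled hri1 as a square. The features were selected by the distance of the squares from the grey points. The squares lie outside all grey points, from -1.05 for the unnamed feature to 1.55 for epr1, while gcn2 lies within the range of the others.

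Most of the higher calls rested on a single probe. Of the 10 genes, both probes were the highest of 62 strains in 1 only, epr1, and 1 probe was in the other 9. The farther probe of a gene lay at a median of 2.27 above the other strains and the nearer at 0.31. For mrpl10 the probes stood at 0.34 and 2.57, for dnf1 at -0.03 and 2.15 and for mlo3 at 2.26 and -0.16. The farther probes of mrpl10, dnf1, epr1, SPAC57A7.05, SPBC3H7.04 and SPCC576.06C read alike. At 60 min they ran from 1.998 to 2.57 in the array labelled hri1 and from -0.28 to -0.13 in gcn2. Their means over the other strains ran from -0.19 to -0.12. Their partner probes were less alike, such as -0.03 for dnf1 and 0.97 for epr1 in the array labelled hri1. These calls may thus not be separate observations, which was not tested. Among the 3 lower features both probes were the lowest of 62 in each, such as -0.99 and -1.02 for SPAC23H4.07C. Tested probe by probe, an analysis added after the values were seen, 32 of 9858 probes were called, 28 of them higher, and SPAC23H4.07C was the only gene with both probes called. With quantile normalization and with scaled arrays limma called 0 features, and 366 and 309 had an unadjusted p under 0.05. The differences with scaled arrays were 1.35 for mrpl10, 1.31 for epr1 and -0.83 for SPAC23H4.07C, and with quantile normalization 0.93, 0.92 and -0.62. Against only the 45 strains whose own gene was lowest, 22 features were called, 12 of the 13 among them, with lip2 left out. Which probe of a gene reports its transcript was not tested.

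**Figure D4:**
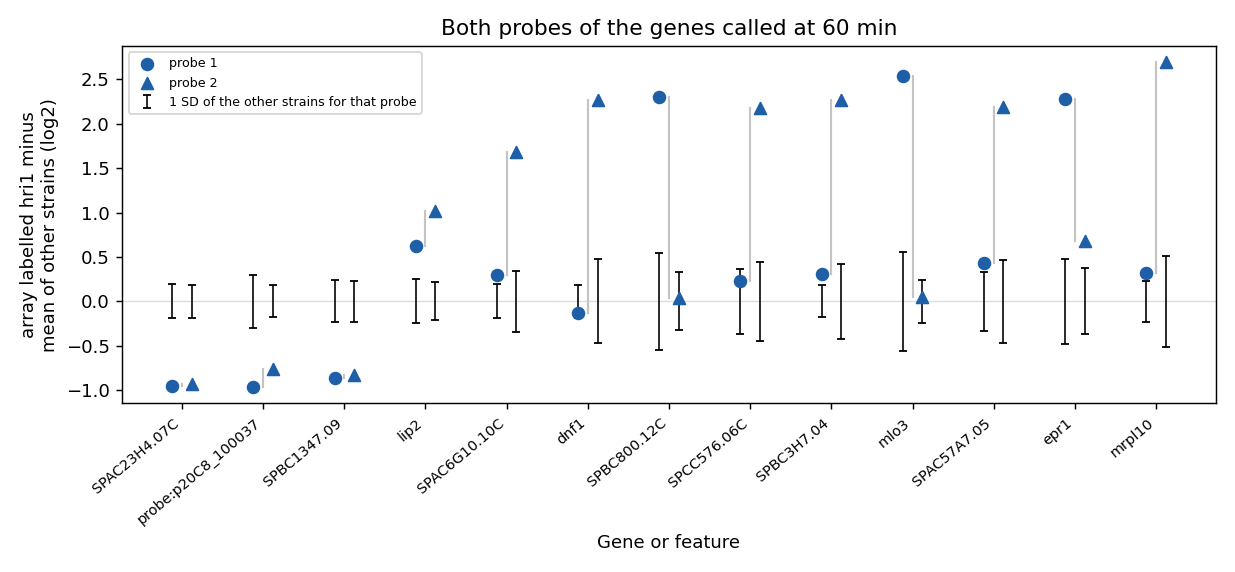
Log2 difference at 60 min (vertical axis) between the array labelled hri1 and the average of the other strains, for both probes (circle and triangle, joined by a line) of each of the 13 called features, with 1 SD of the other strains for the same probe as bars around 0. In most of the higher genes 1 probe lies near 2.3 and its partner near 0.3, whereas both probes of the 3 lower features lie together near -0.9.

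In the change limma called 3 features in the arrays labelled hri1 (0.0609%), all higher: elp5, SPBC3H7.04 and lip2. elp5, which encodes a subunit of the Elongator complex that modifies tRNA, went from -0.70 at 0 min, the lowest of 63, to 0.93 at 60 min, the highest of 62. Its change was 1.63, where the others ran from -0.40 over 0.26 to 0.89 (difference 1.38, SE 0.25, limma adjusted p = 0.00441). Both probes were low at 0 min, at -0.71 and -0.69, ranks 1 and 2 of 63, and both were higher at 60 min, at 1.76, the highest of 62, and at 0.10, rank 24. For SPBC3H7.04, probe 1 went from 0.33 to 0.14 and probe 2 from 0.16 to 2.09. The means of the other strains went from 0.09 to -0.17 and from 0.31 to -0.18. Its change thus rested on probe 2, which is among the probes named above as reading alike. lip2 changed by 0.77 against a mean of -0.27 (SD 0.19), with a difference of 1.04 (SE 0.20, limma adjusted p = 0.00441) and 60 min probe levels of 0.47 and 0.86, ranks 60 and 62 of 62. Quantile normalization kept elp5 alone, and scaled arrays gave 0 calls, with 113 at an unadjusted p under 0.05. The differences with scaled arrays were 1.13 for elp5 and 0.96 for lip2 (limma adjusted p = 0.0691 for each) and 1.21 for SPBC3H7.04. Against the 45 strains whose own gene was lowest 13 features were called, these 3 among them, and elp5 was also called between gcn2 and the arrays labelled hri1, at -1.57 (limma adjusted p = 0.0471).

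Low transcripts that stayed low at both times were more numerous in the arrays labelled hri1 than in gcn2. There, 19 genes were the lowest of all strains at both times and 1 was the highest, against 3 and 0 in gcn2. The median was 2 lowest genes over 62 strains, with 18 in cgs1 and 193 in cyr1. The arrays labelled hri1 ranked 57 of 63 and 42 of 62 in spread, and those of gcn2 ranked 17 and 10. A wider spread places more genes at an extreme, and the counts were not repeated with scaled arrays. The following were chosen after their values were seen. cdc37, an Hsp90 co-chaperone gene, had differences of -0.95 and -0.65 at 0 and 60 min, and dbp5, an RNA helicase gene of mRNA export, had differences of -0.83 and -0.79. cut3, a condensin subunit gene, had -0.77 and -0.82, and asc1, whose product is the RACK1 protein of the small ribosomal subunit, had -0.82 and -0.91. ole1, which encodes the fatty acid desaturase, was the highest at both times, with a difference of 0.89 at 0 min. At least 2-fold at both times were SPAC458.02C (-1.22 and -1.01), vma10, a subunit gene of the vacuolar ATPase (-1.11 and -1.32), and Tf2-11, a retrotransposon with near-identical copies whose value is uncertain (-1.15 and -2.02). None of these 3 passed the test (limma adjusted p = 0.658 for each at 0 min).

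Set side by side, gcn2 and the arrays labelled hri1 did not differ by any single gene that passed the test when all other strains entered the fit. limma called 0 (0%) of the differences between them at 0 min, at 60 min and in the change, with 77, 123 and 113 features at an unadjusted p under 0.05. Both strains as one group against the other strains also gave 0 called features (0%) at each time and in the change, with 335, 470 and 71 under that p. In the mean of both times the pair gave 1 call (0.0203%), the gcn2 gene, at -0.75 (limma adjusted p = 0.00587), which reflects the gcn2 arrays. The comparisons of each strain with the others share all their control arrays, so their values are given next to each other and no agreement between them was computed. Over the 69 amino acid synthesis genes the medians were 0.01 and 0.32 at 0 min, 0.14 and -0.02 at 60 min and 0.15 and -0.23 in the change, for gcn2 and the arrays labelled hri1 in this order.

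Nitrogen starvation itself changed gene expression in both strains as in the others. Fitted together, 758 of 4929 features (15.4%) changed at least 2-fold with a limma adjusted p under 0.05, 352 up (7.14%) and 406 down (8.24%). In the other strains 803 (16.3%) did, 371 up (7.53%) and 432 down (8.76%). All 371 genes that rose and all 432 that fell there went the same way in gcn2, 270 and 343 of them at least 2-fold. In the arrays labelled hri1 371 and 431 went the same way, 333 and 385 at least 2-fold. The median change of the risen genes was 1.28 in gcn2 and 1.62 in the arrays labelled hri1, where the other strains averaged 1.50 (SD 0.25). For the fallen genes it was -1.47 and -1.81, where the others averaged -1.72 (SD 0.18). The 1 wild-type array per time, shown without a test, gave 1.50 and -1.73.

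The size of the response was at the lower end in gcn2. Fitted over 802 starvation genes, a line of the change in one strain against the average change elsewhere had a slope of 0.87 in gcn2 (rank 7 of 62) and 1.07 in the arrays labelled hri1 (rank 44). The other strains averaged 1.00 (SD 0.11), from 0.65 to 1.21, and the wild type gave 1.01. Both strains thus lay inside the range of the others. The gcn2 array also had a small spread at 60 min, rank 10 of 62, and a slope moves with the spread of an array, so how much of the smaller slope is the strain and how much the array cannot be told apart with 1 array.

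**Figure D5:**
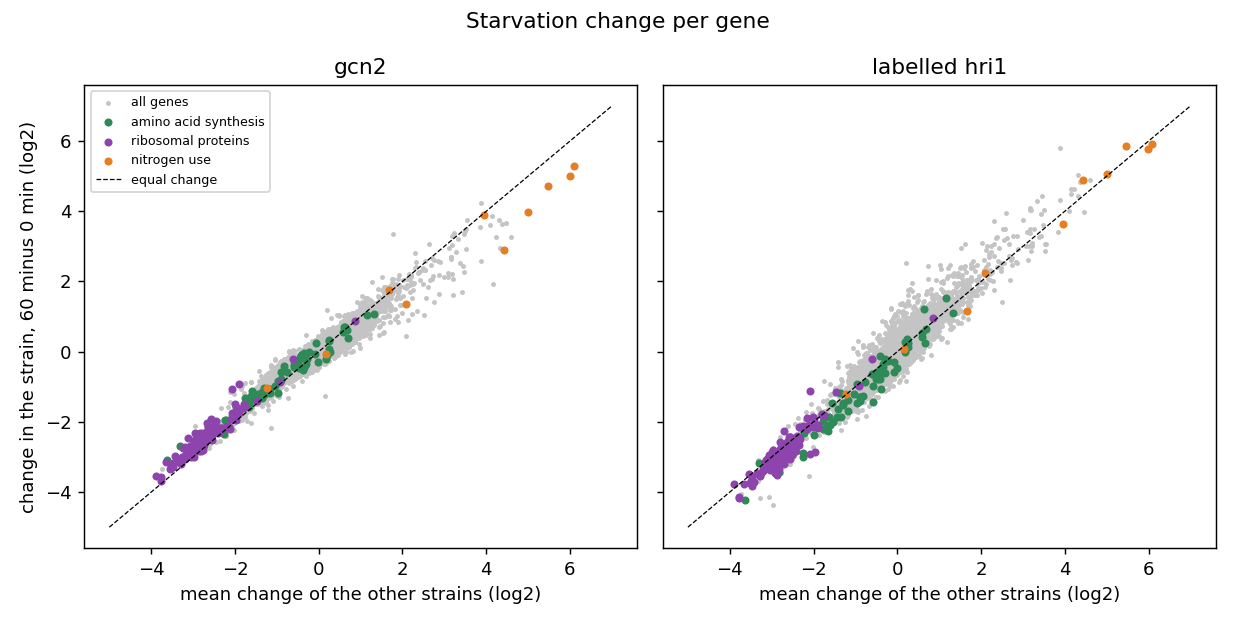
Change from 0 to 60 min per gene in gcn2 (left) and in the arrays labelled hri1 (right, vertical axis, log2) against the mean change of the other strains (horizontal axis, log2), with amino acid synthesis, ribosomal protein and nitrogen-use genes coloured and the line of equal change dashed. Of the 10 nitrogen-use genes, 8 fall below the line in gcn2 as measured, and 5 do in the arrays labelled hri1. With scaled arrays their median difference in gcn2 was -0.06. The slope over the starvation genes is 0.87 in gcn2 and 1.07 in the arrays labelled hri1.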

How the data were processed

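Ratios of Cy5 (strain) to Cy3 (wild-type pool) were deposited by the authors for 9858 probes on 127 arrays, with the dyes given per the labels. How they were scaled and background-corrected is not given in the sources used here. Signal over background is not given, so the number of arrays limits the precision. From them log2 values were computed, centred on each array's median and averaged over the probes of a gene, with 6 zeros set to missing. Names came from the platform annotation, updated with the gene table of assembly ASM294v3 (4816 named genes, 113 unnamed features); the probes come with no stated build, so no coordinates are printed. limma 3.58.1 in R 4.3.3 (lmFit, eBayes) compared the pair and each strain with the other deletion strains, with Benjamini-Hochberg adjustment over all features present in at least 80% of strains. The 0 and 60 min arrays of a strain were paired by strain name. Fits were tested on simulated data. List medians, ranks, slopes and figures were made with Python 3.11.15.

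Named genes were those called (up to 8 per direction), those 2-fold from the others at both times, all eIF2 pathway genes, 3 members of each list that deviated most, and neighbours of the deleted genes. The strains and lists were chosen with earlier results of these data known. Alternatives covered centring, quantile normalization, array spread, probes, moderation, pairing and the choice of other strains, among them only those whose own gene was lowest. Title and description disagree for the wild-type array at 60 min, whose other field reads kinase deletion; it was grouped by title. Genes are named by their RefSeq symbol where there is one, except SPAC23H4.07C, which is given by its systematic name.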

Additional observations from a re-analysis of the deposited data

How the results depend on the processing

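With 1 array per strain and time, the p-values assume that gcn2 and the strain labelled hri1 vary like the others, and a call cannot be repeated within a strain. For the pair at 0 min, 1 feature, the gcn2 gene, was called with quantile normalization, with arrays scaled to a common spread, with each probe by itself and with only the strains of the main run of array numbers. Against the 18 strains whose array numbers lie within 30, a setting chosen after seeing the data, 2 were called (smn1 and taz1). Leaving out either strain gave 0 to 1 calls for the pair at 0 min, 1 to 13 at 60 min and 0 to 3 in the change; the higher number is in each case that of the strain kept. Without the block that pairs 0 and 60 min arrays by strain, the paired change of the pair gave 0 calls, as with it. Quantile normalization called 2 genes in gcn2 at 0 min (gcn2 and fzo1), 1 in the arrays labelled hri1 at 0 min (hri2, at -2.23, which had an adjusted p of 0.997 with scaled arrays), 0 at 60 min and 1 in the change (elp5). Scaled arrays called 0 at 60 min and 0 in the change in those arrays. Against the 18 strains of near array number, the arrays labelled hri1 had 12 calls at 0 min, 41 at 60 min, the 13 main ones among them, and 31 in the change, and gcn2 minus hri1 had 1 in the change (mrpl10). Probe by probe, also added later, they had 32 calls at 60 min and 18 in the change. The starvation change of both strains together gave 440 calls with quantile normalization, where that of the other strains gave 479 instead of 803. Against only the 45 strains whose own gene was lowest, also chosen after seeing the data, the gcn2 strain had 0 calls at 60 min, the arrays labelled hri1 had 22 at 60 min and 13 in the change, and gcn2 minus hri1 had 1 in the change (elp5). The cause of these shifts was not tested. The gcn2 gene was called in gcn2 at 0 and 60 min under every other setting run for it: quantile normalization, scaled arrays, trend and robust moderation, near array numbers and single probes. Of 660 recomputed list medians, 624 moved by less than 1 SD of the other strains and 36 by more; of the 132 per setting, the sign changed in 31 with scaled arrays, 14 with quantile normalization and 0 against those 45 strains. Signal over background, which would limit dim probes, is not given.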
